A study of Mus musculus with 9 samples.

Results

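CTCF peaks in gene deserts were taken from the merged peak set of a ChIP-seq experiment in mouse neural stem cells (NSCs). A gene desert peak was defined as a peak on chromosomes 1 to 19 that overlapped no annotated gene of any type and lay more than 200 kb from every transcription start of a protein-coding gene (GRCm38, GENCODE M21). Of the 225769 merged peaks, 22933 met the rule, which is 10.2% of all peaks and 10.6% of the 217130 autosomal peaks. The rule used positions only. The peaks themselves were called in these data, genotype by genotype, and the set was chosen with earlier results of these data known. Each peak is named here by its position and by the protein-coding genes whose starts are nearest on either side.

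The NSCs were primary female C57Bl/6 lines grown from embryonic cortices, and the 9 libraries comprised 3 of the control, 3 of MommeD43-GFP, 2 of Smchd1 del/del and 1 input of control whole cell extract. Control lines were Smchd1 GFP/GFP, in which both copies of Smchd1 are fused to GFP. MommeD43-GFP lines were Smchd1 MommeD43-GFP/MommeD43-GFP, where both tagged copies also carry the MommeD43 point mutation, placed on the GFP allele by CRISPR/Cas9 editing. Smchd1 del/del lines carry no GFP tag and were made in culture from floxed NSCs with a Cre retrovirus followed by puromycin selection, so the deletion, the missing tag, the virus and the selection cannot be told apart in any comparison with them. The deposited table gives 1 pooled value for each genotype at each peak, the authors' mean over libraries of log2 reads per M reads. No value below could therefore be checked against the spread between libraries, no test was possible, and a call means only that 2 pooled values were at least 2-fold apart. Where 3 values stand in a row, they are those of control, MommeD43-GFP and Smchd1 del/del, in that order. The input has no value in the table, and whether a peak stood above input was not tested. The table holds no expression values either, so the labelled cell type could not be checked against marker genes.

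CTCF is a zinc finger protein that binds a directional DNA motif, halts the cohesin complex as it extrudes chromatin loops, and so marks loop anchors, insulators and domain borders. Gene deserts are long stretches without protein-coding genes. They often lie beside developmental regulators and neural adhesion genes, can hold distant enhancers, and tend to be AT-rich and rich in transposon sequence. SMCHD1 is a non-canonical SMC protein that takes part in gene silencing and long-range chromatin contacts.

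The 12-base core CTCF motif was found in 303 of the 22933 gene desert peaks, and the sites below show what it looked like in the peaks on which the results turn. Each line gives the genes on either side and 52 bases of the GRCm38.p6 reference around the motif, 5′ to 3′ on the strand of the motif, with the 12 motif bases in capitals. A match is a description of the sequence and not evidence of binding. The first 3 sites lie in the tallest peaks that hold a motif, at chr16:5471501-5471552 (minus strand), chr9:46735715-46735766 (plus) and chr6:50937290-50937341 (minus).
Eef2kmt-Rbfox1: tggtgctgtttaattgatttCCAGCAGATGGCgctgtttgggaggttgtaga
4931429L15Rik-Gm4791: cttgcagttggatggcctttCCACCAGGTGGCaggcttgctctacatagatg
Npvf-Nfe2l3: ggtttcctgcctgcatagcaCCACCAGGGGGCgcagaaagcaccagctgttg

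The next sites lie in the motif peaks furthest above control in MommeD43-GFP (chr3:17613668-17613719, minus) and in Smchd1 del/del (chr6:104028630-104028681, plus), and in the motif peak furthest below control in both (chr15:14856752-14856803, minus). The last pair lies in the motif peaks where MommeD43-GFP stood furthest above (chr7:115123461-115123512, plus) and furthest below Smchd1 del/del (chr16:5673770-5673821, minus). These peaks were picked among those at or above the median level of all peaks.
Ythdf3-Cypt12: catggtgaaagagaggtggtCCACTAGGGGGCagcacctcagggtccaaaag
Chl1-Cntn6: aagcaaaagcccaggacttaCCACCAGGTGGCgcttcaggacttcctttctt
Cdh6-Cdh9: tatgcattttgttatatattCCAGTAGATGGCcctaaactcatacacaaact
Insc-Sox6: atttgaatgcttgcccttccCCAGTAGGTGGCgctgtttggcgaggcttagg
Eef2kmt-Rbfox1, second peak: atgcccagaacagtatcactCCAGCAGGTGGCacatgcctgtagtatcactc

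Gene desert peaks were low and short. Their median level was -0.90, -0.93 and -0.97 on the log2 scale. In the same order the medians were -0.48, -0.50 and -0.55 in intergenic autosomal peaks nearer to genes, -0.47, -0.48 and -0.51 in gene bodies, and 0.46, 0.43 and 0.41 at promoters, taken as within 1 kb of any transcription start. The median gene desert peak measured 600 bp, against 750 bp over all peaks and 1200 bp at promoters. The values are not divided by length, and the gap was smaller per kb of peak, where the control median was -0.0044 in gene deserts, 0.033 in nearer intergenic peaks and 0.023 in gene bodies.

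**Figure D1:**
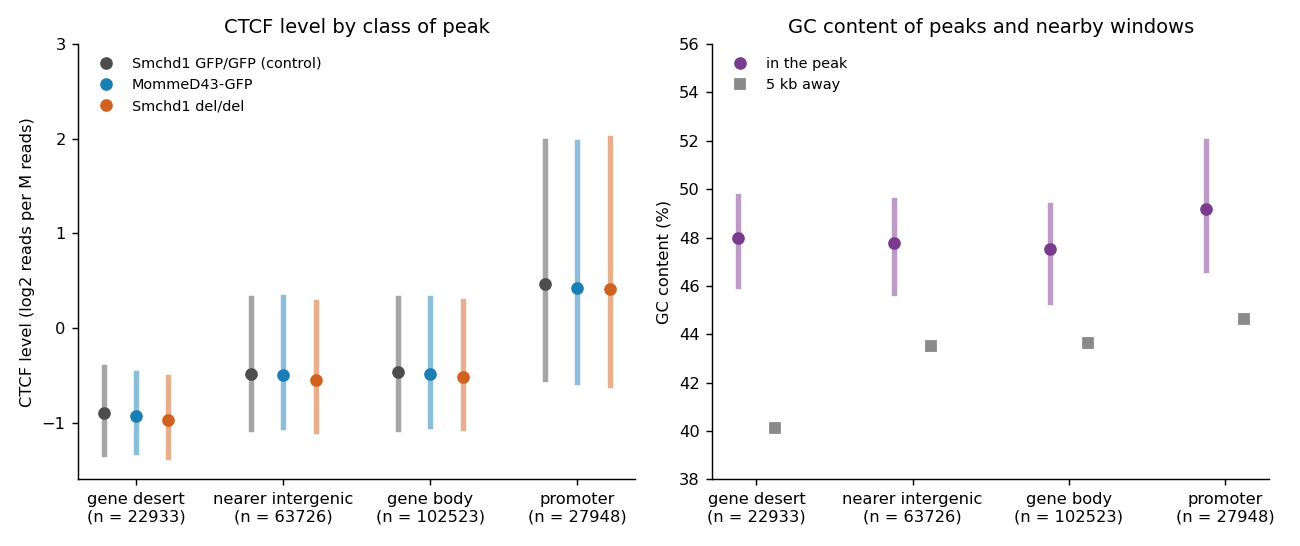
Left, CTCF level (log2 reads per M reads) by class of peak and genotype, with points at the median over peaks and bars from the lower to the upper quartile of peaks. Right, GC content (%) of the same peaks, with bars from the lower to the upper quartile, and the median of same-length windows 5 kb away. The gene desert class has the lowest level of the 4 classes in each genotype, while its GC content of 48.0% is like that of the others and its surroundings are the lowest at 40.1%.

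Low peaks made up most of the set. Of the gene desert peaks, 74.7% lay below the median level of all peaks. Peaks called tall here, with a mean over the 3 genotypes of at least 1 (2 reads per M reads, a limit chosen after seeing the values), numbered 745 (3.25%), against 18% of other autosomal peaks and 39.7% of promoter peaks. From the steps between the lowest values, library sizes (geometric means) came out at 41.7, 49.2 and 49.98 M reads. The median gene desert peak then held 22.3, 25.8 and 25.5 reads per library, so counting alone put an error of 0.18, 0.16 and 0.20 (log2) on it. No other source of error is included in these figures.

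The tallest gene desert peak lay between Eef2kmt, a methyltransferase of the elongation factor eEF2, and Rbfox1, a neuronal splicing regulator (chr16:5465851-5474850, 209.9 kb from the Eef2kmt start). Its level was 3.95 ± 0.03 (counting error), 4.205 ± 0.03 and 4.63 ± 0.03. It was highest in the deletion lines. The peak between 4931429L15Rik and Gm4791 (chr9:46733701-46739700) followed with 4.06, 4.09 and 4.18. The peak between Npvf, which encodes neuropeptide VF, and Nfe2l3, a bZIP transcription factor (chr6:50936101-50941350), held 2 core motifs and stood at 3.97, 4.08 and 4.26. In these 3 peaks control was the lowest of the 3 genotypes. The peak between the matrilin gene Matn1 and the receptor phosphatase gene Ptpru (chr4:131250601-131258250) had no core motif, and its levels were 4.04, 3.89 and 4.14. The fifth, between the stress-response gene Gadd45g and the Ras-like GTPase gene Diras2 (chr13:52252051-52257000), stood at 3.84, 3.99 and 4.15. All 5 were between 4950 and 9000 bp long.

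Membership turns on the 200 kb limit, and the 4 peaks closest to it are given for reference. Just inside it, the peak between Rgs17 and Oprm1 (chr10:6122401-6122700) stood at -1.15, -1.76 and -1.13, and the peak between Rap2a and Ipo5 (chr14:120678451-120679650) at -0.07, 0.17 and -0.20. Just outside it, the peak between Rasgrp1 and Thbs1 (chr2:117543001-117544050) stood at 0.77, 0.50 and 1.12, and the peak between Fstl5 and Rapgef2 (chr3:78943501-78945000) at 0.09, 0.49 and -0.03.

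Gene desert peaks differed in sequence from their surroundings. Their median GC content was 48.0% (quartiles 46% and 49.7%), against 40.1% in same-length windows 5 kb away, and 91.6% of them were richer in GC than those windows. Over other autosomal peaks the medians were 47.8% and 43.7%, and 80.1% were richer. Desert sequence as a whole, without genes and gaps, had a GC content of 38.6% and the rest of the autosomes 42.7%. Repeats, the bases in lower case in the reference, covered a median of 24.7% of a gene desert peak and 15.4% of another autosomal peak, and 32.9% against 11.6% of peaks were more than 50% repeat. In the windows 5 kb away the median repeat shares were higher, at 30.2% and 23.9%. The order reversed with distance from a protein-coding start. From 400 to 600 kb the median shares were 27.3% in gene desert peaks and 29.6% in their windows. From 600 to 1000 kb they were 49.8% and 39.5%, and beyond 1000 kb 59.7% and 45.1%.

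The core motif was rare in gene desert peaks as a class and common in the tall ones. It was present in 1.32% of them (exact 95% binomial interval 1.18% to 1.478%), in 4.13% of other autosomal peaks (4.04% to 4.22%) and in 0.2203% of same-length windows 5 kb away from gene desert peaks. Neighbouring peaks are not independent, and the intervals cover counting error only. Among tall gene desert peaks 133 of 745 held a core motif, or 17.9% (15.2% to 20.8%), beside 18.5% of other tall autosomal peaks. The other tall peaks were higher, with a control median of 1.98 against 1.45, so these 2 shares are not at like levels. Between a mean level of -1.5 and -1 the share was 0.173% in gene deserts and 0.168% elsewhere. At a level of 0.5 to 1 it was 7.68% and 4.16%, at 1 to 1.5 it was 11.5% and 7.05%. At 1.5 to 2 it was 19.2% and 11.9%, and at 2 to 3 it was 23.6% and 20.6%. Above a level of 3 it was 40.5% of only 37 gene desert peaks (24.8% to 57.9%) and 38.1% elsewhere. The relaxed form of the motif, in which more bases of the 12 may vary, followed the same order, with 6.36% of gene desert peaks, 18.5% of other autosomal peaks, 46.0% of tall gene desert peaks and 57.8% of other tall peaks. Most gene desert peaks held neither form.

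**Figure D2:**
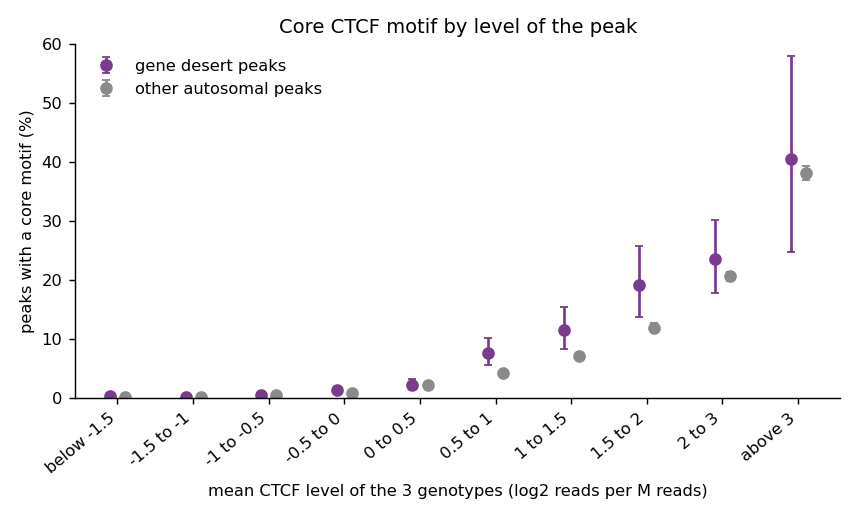
Share of peaks with the 12-base core CTCF motif (%) by mean level of the 3 genotypes (log2 reads per M reads), for gene desert peaks and other autosomal peaks. Bars are exact 95% binomial intervals. In both sets the share is under 2.5% below a level of 0.5 and close to 40% above 3.

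The 303 motif peaks were read for the direction of the motif, since CTCF sites that face each other are those usually found at the ends of a loop. The motif stood on the plus strand alone in 135, on the minus strand alone in 165 and on both strands in 3. Neighbouring motif peaks within 1 desert, with no other motif peak between them, formed 84 pairs: 41 on the same strand, 19 facing each other, 22 facing away and 2 with motifs on both strands. Pairs that faced each other made up 22.6%, against 23.7% of 7795 such pairs among other autosomal peaks. Facing pairs in deserts were a median of 137 kb apart, with a range from 8.7 kb to 2331 kb.

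Peaks were sparser in deserts than elsewhere. Gene desert peaks numbered 50.1 per Mb of desert sequence free of genes and gaps (458 Mb), against 100.2 per Mb in the rest of the autosomes (1938 Mb). For tall peaks the densities were 1.63 and 18 per Mb. Neighbours within 1 desert were a median of 10.4 kb apart (quartiles 3.60 and 25.7 kb), while the median for other autosomal peaks was 5.55 kb. Tall neighbours in 1 desert were a median of 35.25 kb apart. The longest stretch between neighbouring gene desert peaks in 1 desert was 790.4 kb between centres, on chromosome 7 between a peak ending at 94005750 and one starting at 94795351, in the desert between Fam181b and Tenm4, a teneurin gene. Deserts can hold parts of genes and assembly gaps, and CTCF peaks that overlap a gene are not counted as gene desert peaks. The distances within deserts pass over both, so they are not stretches known to lack CTCF peaks. On single chromosomes the density ran from 40.9 per Mb on chromosome 6 to 81.8 per Mb on chromosome 7.

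A desert was taken as a whole autosomal stretch more than 200 kb from every protein-coding start. There were 1010 of them covering 623 Mb, or 25.3% of the autosomes, and 782 held at least 1 gene desert peak, with a median of 19 (quartiles 9 and 40). The desert with the most peaks, 188 in 1.22 Mb, lay between Tmem132b and Tmem132c, paralogous transmembrane genes, on chromosome 5. Its peaks were nearly all low: the median control level was -0.94, and the tallest (chr5:126045301-126047400) stood at 1.10, 1.52 and 0.94. The deserts of Pcdh17 and Pcdh9, both protocadherin genes on chromosome 14, came next with 161 peaks in 4.04 Mb and 152 peaks in 5.01 Mb, or 39.8 and 30.3 per Mb. Their tallest peaks stood at 0.78, 1.04 and 1.63 (chr14:80845351-80846400, Olfm4 to Pcdh17) and at 0.79, 0.95 and 1.40 (chr14:92763901-92765400, Pcdh20 to Pcdh9). In both, Smchd1 del/del was highest and control lowest.

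The next 3 deserts differed widely in density and height. The stretch between Tbc1d22a and Fam19a5, which encodes a secreted protein of the TAFA family, on chromosome 15 held 149 peaks in 0.909 Mb (164 per Mb), with a control median of -0.28 and a tallest peak (chr15:87331951-87338100) at 3.11, 3.24 and 3.25. Between the kinase gene Vrk1 and 3110018I06Rik on chromosome 12, 148 peaks had a control median of -0.47, and the tallest (chr12:106378351-106380600) stood at 2.53, 2.68 and 3.02. The sixth, between the zinc transporter gene Slc39a10 and Tmeff2 on chromosome 1, held 127 peaks over 3.61 Mb and none of them was tall. Its tallest (chr1:49726801-49728000) stood at 0.38, -0.12 and 0.01, and its median differences from control were -0.12 for MommeD43-GFP and -0.24 for Smchd1 del/del, below the medians over all gene desert peaks given further on.

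**Figure D3:**
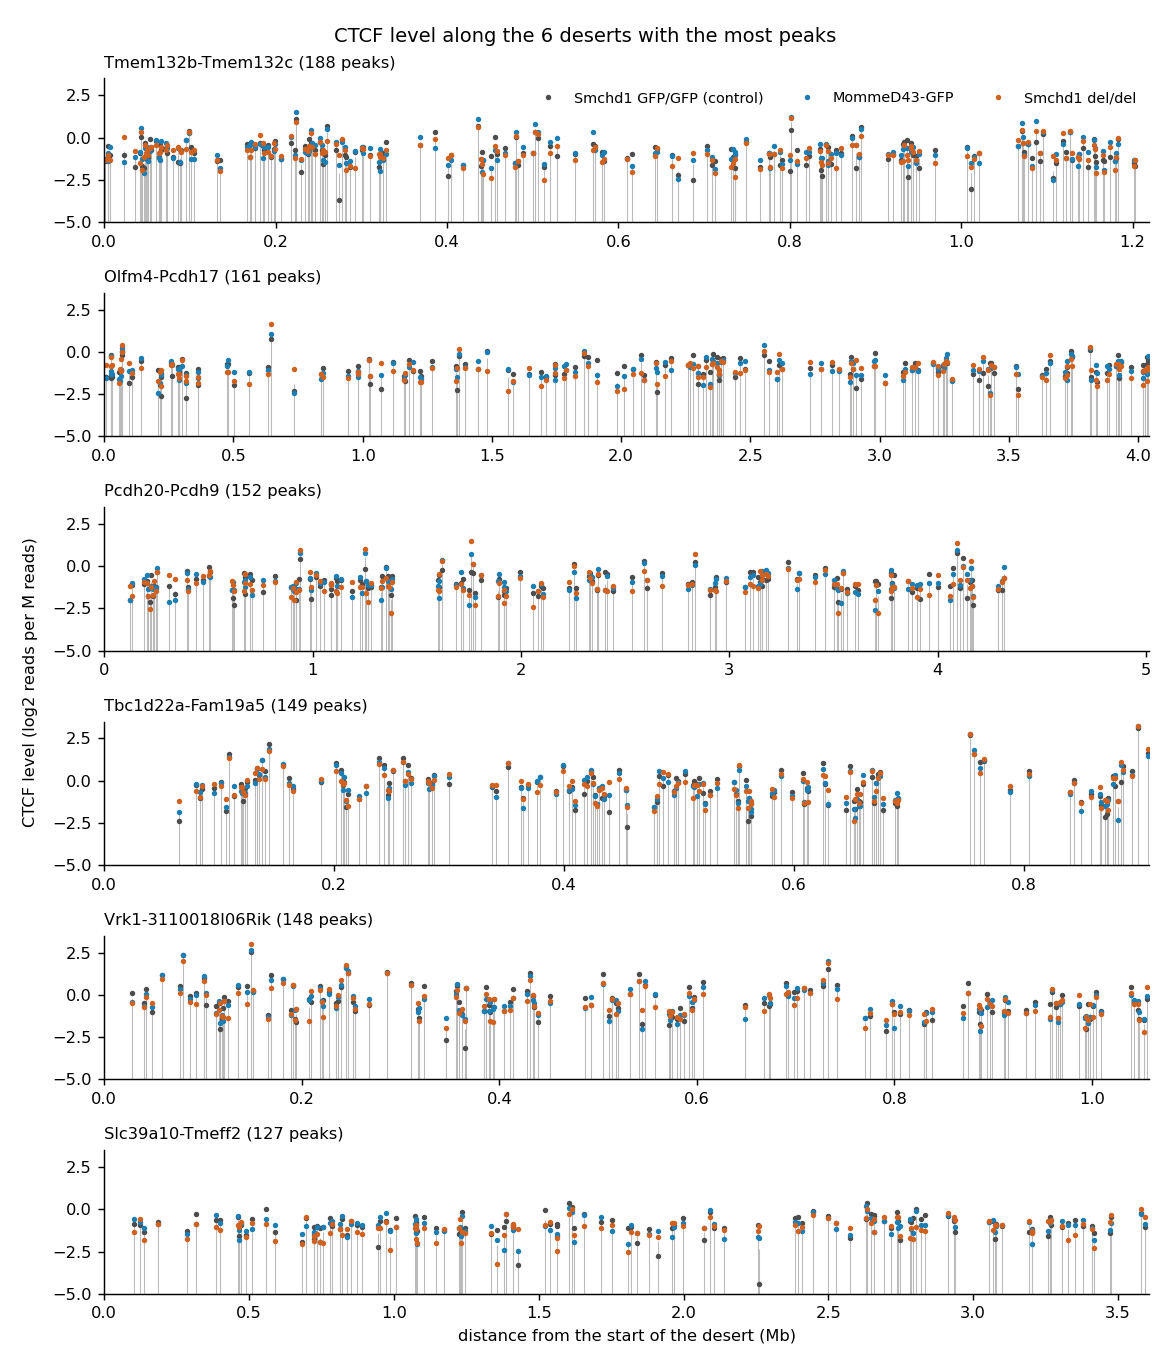
CTCF level (log2 reads per M reads) of each gene desert peak along the 6 deserts with the most peaks, by distance from the start of the desert (Mb). Points are the pooled values of the 3 genotypes and grey lines run up to their mean. The Tmem132b-Tmem132c, Tbc1d22a-Fam19a5 and Vrk1-3110018I06Rik deserts are short and dense, and the tallest peaks, above 2.5, are in the last 2 of these.

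Among the 344 deserts of at least 500 kb with a peak, the density over the whole desert ran from 1.39 to 191 per Mb. In the 115 densest the peaks had a median repeat share of 16.3% and a control median of -0.88. In the 115 sparsest the values were 52.5% and -0.999. The densest of these deserts, 111 peaks between the cadherin genes Cdh26 and Cdh4, had a control median of 0.040.

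Level, repeats and differences between genotypes varied together with distance from genes. From 200 to 250 kb of the nearest protein-coding start, 4361 peaks had a control median of -0.80, a median repeat share of 14.8% and 5.16% tall peaks. Beyond 1000 kb, 2149 peaks had a control median of -0.998, a repeat share of 59.7% and 0.651% tall peaks. Between the same groups the median difference from control went from 0.027 to -0.073 in MommeD43-GFP and from -0.027 to -0.14 in Smchd1 del/del. Each was smaller than the counting error of a single peak, which is not the error of a median over many peaks. The part of repeat content or GC content in this trend was not tested.

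Deserts were also grouped by the kind of gene at their ends, from lists written with earlier results of these data known. Deserts at neural transcription factor genes, 74 in number, held 2599 peaks (55.8 per Mb) with a control median of -0.86 and a median repeat share of 12.9%. The tallest (chr6:143371651-143375550) lay in the desert between Etnk1 and Sox5, a SoxD factor of neural and cartilage development, 572 kb from the Sox5 start and 204 kb from the Etnk1 start, at 3.24, 3.27 and 3.35. Deserts at genes of adhesion, synapses or axon guidance, 151 in number, held 5484 peaks (31.8 per Mb) with a control median of -0.98 and a repeat share of 47.3%. Their tallest lay between Cdh26 and Cdh4 (chr2:178663501-178669500), at 3.42, 3.52 and 3.77. Per Mb of whole desert, the adhesion deserts thus held sparser peaks than the transcription factor deserts, and their peaks were richer in repeats. These densities count genes and gaps in the length, unlike the density per Mb of gene-free sequence given above. The part of gene and gap content in their difference was not tested.

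Deserts at secreted developmental signals, 29 in number, held 451 peaks with a control median of -0.90, the tallest of them between the hedgehog effector gene Gli3 and the activin subunit gene Inhba (chr13:15758101-15760200) at 2.96, 2.84 and 3.21. Of the 8 deserts at olfactory or vomeronasal receptor genes only 3 held gene desert peaks, 94 in all. Their density was 8.42 per Mb of whole desert, with genes and assembly gaps counted in the length of all 8. Their tallest, beside Olfr161 at the start of chromosome 16 (chr16:3231301-3241800), was the longest gene desert peak at 10500 bp, was 53.9% repeat, and stood at 4.06, 3.98 and 3.71. The median difference in Smchd1 del/del was -0.029 in the transcription factor group, -0.095 in the adhesion group, -0.079 in the secreted group, -0.057 in the receptor group and -0.061 over the 14321 peaks of the other deserts. In MommeD43-GFP these medians lay between -0.022 and 0.0081.

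The comparison with control asks whether CTCF occupancy differs where SMCHD1 carries the MommeD43 mutation or is lost. Both comparisons use the same control libraries and are given side by side. Over all gene desert peaks the typical difference was close to 0: the median was -0.0025 for MommeD43-GFP (quartiles -0.30 and 0.31) and -0.067 for Smchd1 del/del (-0.41 and 0.30), beside 0.0069 and -0.036 over all peaks. Between the mutants, MommeD43-GFP less Smchd1 del/del, the median was 0.062 in gene deserts and 0.035 over all peaks. MommeD43-GFP stood above control in 49.8% of gene desert peaks and Smchd1 del/del in 44.9%.

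In MommeD43-GFP, 733 gene desert peaks (3.2%) were at least 2-fold higher than control and 333 (1.45%) at least 2-fold lower, beside 2.08% and 0.718% of all peaks. In Smchd1 del/del, 1020 (4.45%) were higher and 802 (3.5%) lower, beside 3.31% and 1.85%. Between the mutants, 521 (2.27%) were higher in MommeD43-GFP and 384 (1.67%) lower, beside 1.26% and 1.08%. Most of these calls came from the lowest peaks: of the 733, 611 were in the lowest of 5 equal bins of autosomal peaks by level, where 7.93% of gene desert peaks and 8.03% of other peaks were at least 2-fold higher. The shares lower in that bin were 3.41% and 2.49%. In the lowest bin for Smchd1 del/del, 8.69% and 9.45% were higher than control and 6.99% and 5.31% lower. In the lowest bin between the mutants, 5.52% and 4.67% were higher in MommeD43-GFP and 3.68% and 3.5% lower. The share of calls that were higher depended on scaling in MommeD43-GFP. It was 68.8% with the deposited values, 46.1% after quantile normalization, 38% after removal of the trend on level and 58.6% with differences centred in bins of GC content. All peaks moved likewise, with shares of 74.4%, 52.7%, 45.6% and 61.4%. For Smchd1 del/del the share was 55.98% with the deposited values and 66.3% with each column centred on its median. The matching shares of all peaks were 64.1% and 73.3%. Between the mutants it was 57.6% with the deposited values, 49.8% with centred columns, 42.4% after quantile normalization and 31.4% after the trend was removed. For all peaks these were 53.8%, 45.5%, 38.8% and 29.4%.

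Among gene desert peaks at or above the median level of all peaks, calls were few, and against control more were higher than lower in both mutants. Level here is the mean of the 2 values compared, so a peak high in 1 genotype alone could pass. In MommeD43-GFP 26 of 5936 (0.438%) were at least 2-fold higher than control and 2 (0.0337%) lower, beside 0.255% and 0.0514% of all peaks at that level. In Smchd1 del/del 159 of 5895 (2.7%) were higher and 37 (0.628%) lower, beside 1.5% and 0.314%. Between the mutants 10 of 5767 (0.173%) were higher in MommeD43-GFP and 32 (0.555%) lower, beside 0.085% and 0.292%. In the highest of the 5 bins of level, 42 of 1027 gene desert peaks (4.09%) were at least 2-fold higher in Smchd1 del/del and 1 lower, while among other autosomal peaks the share higher was 0.948%. The median differences of that bin were 0.14 in gene deserts and 0.0082 elsewhere for Smchd1 del/del, and 0.11 and 0.0091 for MommeD43-GFP. Median GC content in that bin was 47.0% in gene deserts and 48.6% elsewhere in the comparison of Smchd1 del/del, and its part in the difference was not tested.

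**Figure D4:**
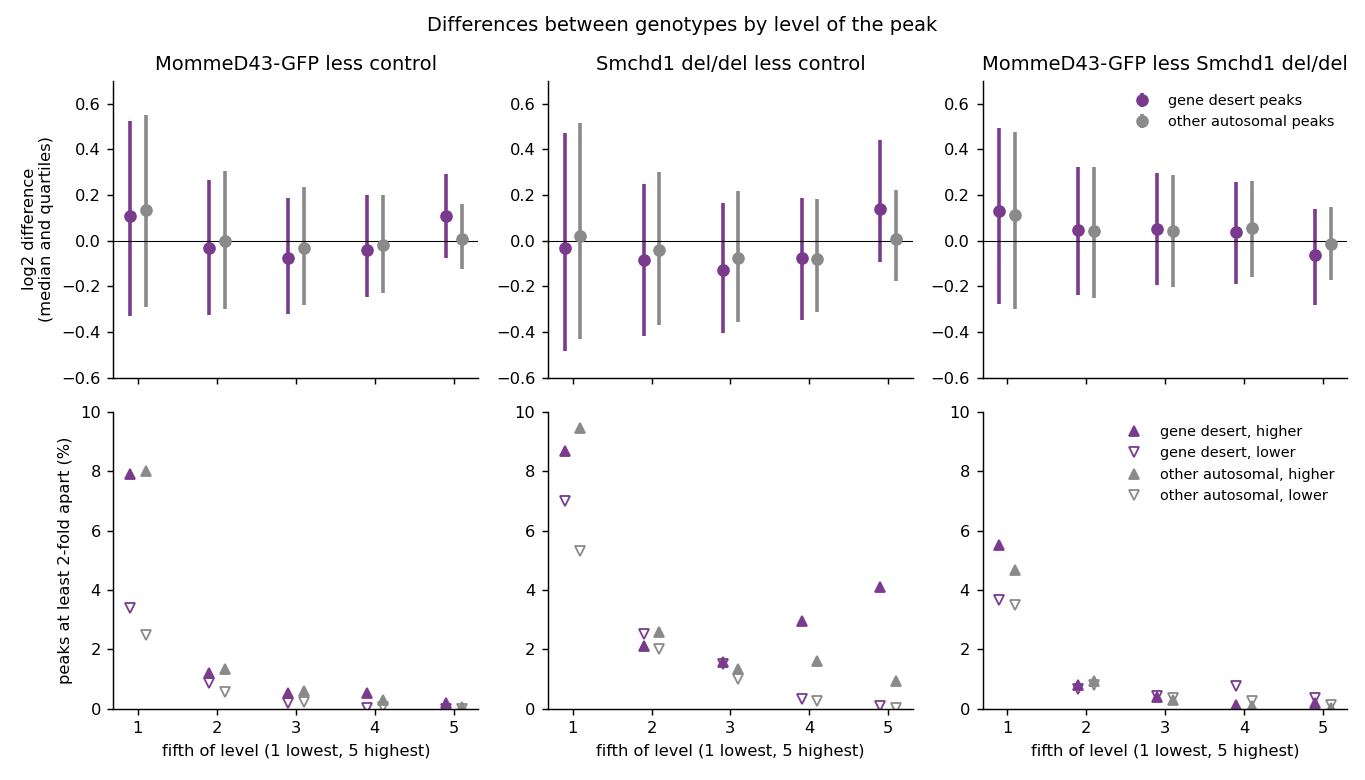
Top, difference between genotypes (log2) in 5 equal bins of level, with points at the median over peaks and bars from the lower to the upper quartile of peaks. Bottom, percent of peaks at least 2-fold higher (filled) or lower (open), for gene desert peaks and other autosomal peaks in the same bin. In the highest bin, gene desert peaks have medians of 0.11 and 0.14 above control, and 4.09% are at least 2-fold higher in Smchd1 del/del.

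GC content moved with the differences in gene deserts and elsewhere alike. In the poorest of 5 equal bins of autosomal peaks by GC content (45% at most), the median difference of gene desert peaks was 0.13 for MommeD43-GFP and 0.081 for Smchd1 del/del. In the richest (50.2% or more) it was -0.095 and -0.18. Over other autosomal peaks the same values were 0.16 and 0.15 at the low end and -0.096 and -0.14 at the high end. At the low end 11.8% of gene desert peaks and 8.05% of other autosomal peaks were at least 2-fold higher in Smchd1 del/del. At the high end these shares were 0.821% and 0.491%. The shares at least 2-fold lower were 5.36% and 2.21% at the low end, and 3.64% and 1.45% at the high end.

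Most tall gene desert peaks stood above control in each mutant. Over the 745 tall peaks the median levels were 1.45, 1.64 and 1.73. The median difference from control was 0.13 in MommeD43-GFP, which was above control in 526 of them (70.6%), and 0.17 in Smchd1 del/del, which was above in 544 (73.0%). In Smchd1 del/del 27 (3.62%) were at least 2-fold higher and 0 lower, beside 0.809% and 0.0287% of other tall autosomal peaks. Other tall autosomal peaks, 34875 in number, had median differences of 0.014 and 0.020, and 52.7% and 52.9% were above control. When differences were centred within 20 bins of GC content, the medians of the tall gene desert peaks were 0.085 and 0.15, and those of the other tall peaks 0.026 and 0.077. The gene desert peaks were shorter (median 2100 bp against 2700 bp), lower (1.45 against 1.98 in control) and poorer in GC (46.6% against 48.6%), and the part of these in the difference was not tested.

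The median differences were wider where the core motif was present. The 303 gene desert peaks with a core motif had median levels of 0.51, 0.81 and 0.95, and median differences from control of 0.23 (quartiles 0.011 and 0.52) and 0.30 (0.036 and 0.80). MommeD43-GFP stood above control in 233 (76.9%) and Smchd1 del/del in 236 (77.9%). At least 2-fold higher were 21 in MommeD43-GFP (6.93%), with 2 lower (0.66%), and 52 in Smchd1 del/del (17.2%), with 0 lower. The 22630 gene desert peaks without the motif had medians of -0.0064 and -0.073. In Smchd1 del/del 968 of them (4.28%) were at least 2-fold higher and 802 (3.54%) lower, beside 2.98% and 1.69% of other autosomal peaks without it. In the 8021 other autosomal peaks with the motif, which were far taller (2.31 in control), the median differences were 0.044 and 0.12, and 4.1% were at least 2-fold higher in Smchd1 del/del. Below a mean level of 1, where the control medians were -0.35 and 0.096, the median differences were 0.33 and 0.28 in 170 gene desert motif peaks and 0.22 and 0.27 in 1584 others. In that range 25.9% and 15.6% were at least 2-fold higher in Smchd1 del/del, and 12.4% and 7.13% in MommeD43-GFP. MommeD43-GFP stood above control in 72.9% and 72.5% of these peaks, and Smchd1 del/del in 70% and 69.7%. Median GC content was 44.1% in the 303 motif peaks of gene deserts and 47.5% in the 8021 others. With differences centred in bins of GC content, the 303 had medians of 0.13 and 0.25 and the 8021 others 0.038 and 0.15.

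Single peaks are named here if the mean of the values compared was at or above the median of that mean over all peaks. In Smchd1 del/del the furthest above control lay between Chl1 and Cntn6, both neural adhesion genes of the immunoglobulin family (chr6:104028301-104029050). Its level was -1.95 ± 0.25 (counting error), 0.35 ± 0.11 and 1.09 ± 0.10, a difference from control of 2.303 ± 0.275 and 3.04 ± 0.27. Both mutants were far above control, and the peak holds the core motif printed above with a GC content of 35.6%. The peak between Gm10295 and Mctp2, a C2 domain gene (chr7:71866801-71868000), also holds a core motif and stood at -0.61, 0.92 and 1.54. The motif peak between Ythdf3, a reader of methylated adenosine in RNA, and Cypt12 (chr3:17613151-17614050) stood at -1.26, 0.49 and 0.55. Its difference of 1.76 ± 0.22 in MommeD43-GFP was the widest among gene desert peaks that reached the median level in that comparison, which the Chl1-Cntn6 peak did not. On chromosome 18 the motif peak between Mbd2 and the netrin receptor gene Dcc (chr18:71211451-71212350) stood at -0.998, 0.27 and 0.998. Since the limit is on the mean of the values compared, these 4 motif peaks, all low in control, passed it through the mutant in which they were high. The same limit applies to the peaks named below that were low in 1 of the 2 genotypes compared. They passed through the genotype in which they were high.

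Other peaks high in a mutant held no core motif. The peak between Kif2b, a kinesin gene, and Car10, a carbonic anhydrase-related gene (chr11:92405551-92406450), stood at -1.14, 0.05 and 1.05. The peak between Auts2, a neurodevelopmental gene, and Castor2 (chr5:133056001-133056900) stood at -0.70, 0.57 and -0.09. Also highest in MommeD43-GFP was the peak between Fam173b and the taste receptor gene Tas2r119 (chr15:31826851-31828650), with levels of 0.82 ± 0.10, 2.42 ± 0.05 and 0.29 ± 0.13, so MommeD43-GFP was 3.03-fold above control and 4.38-fold above Smchd1 del/del. It lies in a stretch of chromosome 15, from 30 to 40 Mb, that earlier results had marked as standing apart in this genotype. The 19 gene desert peaks there had a median difference of -0.25 in MommeD43-GFP.

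Peaks below control were named under the same limit on level, which leaves out the peaks without reads described last. In Smchd1 del/del the furthest below lay between Irx2 and Irx4, Iroquois homeobox genes (chr13:72967501-72968550), at 0.52 ± 0.11, -0.07 ± 0.12 and -0.99 ± 0.20. The peak between the ephrin receptor gene Epha5 and the centromere gene Cenpc1 (chr5:85841101-85842450) stood at 0.73, 0.53 and -0.62. The peak between the imprinted genes Rtl1 and Dio3, a deiodinase gene (chr12:109830901-109832250), stood at 0.56, 0.17 and -0.74. The other 2 of the 5 furthest below, between Nphp4 and Ajap1 (chr4:152789701-152790900) and between the protocadherin gene Pcdh10 and Pabpc4l (chr3:45784501-45785250), had differences of -1.34 ± 0.23 and -1.29 ± 0.25. None of these 5 held a core motif, their GC content ran from 50.4% to 52.7%, and MommeD43-GFP lay between the other genotypes in each.

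In MommeD43-GFP 2 gene desert peaks that met the limit were at least 2-fold below control. Because the limit is on the mean of the values compared, a peak that is very low in MommeD43-GFP falls below it, as did chr4:26555251-26556150 with a control level of 0.07 and 0 reads in MommeD43-GFP. The peak between the doublesex-related gene Dmrt2 and the chromatin remodeller gene Smarca2 (chr19:26218651-26219700) stood at 0.68 ± 0.10, -0.62 ± 0.15 and 0.63 ± 0.12, and was low in MommeD43-GFP alone. The peak between Thap1 and Zfp703 (chr8:26680651-26681550) stood at 0.23, -0.99 and -0.52. The next 3, between Fsip2 and Zc3h15 (chr2:83345551-83346450), between Ppp6c and the lipoprotein receptor gene Lrp1b (chr2:39585301-39586200), and between Slc39a10 and Tmeff2 (chr1:48614851-48615600), had differences of -0.99 ± 0.20, -0.96 ± 0.21 and -0.95 ± 0.21. The motif peak furthest below control in both mutants, between the cadherin genes Cdh6 and Cdh9 (chr15:14856001-14856900), stood at 0.04, -0.61 and -0.89 and was 75.6% repeat.

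**Figure D5:**
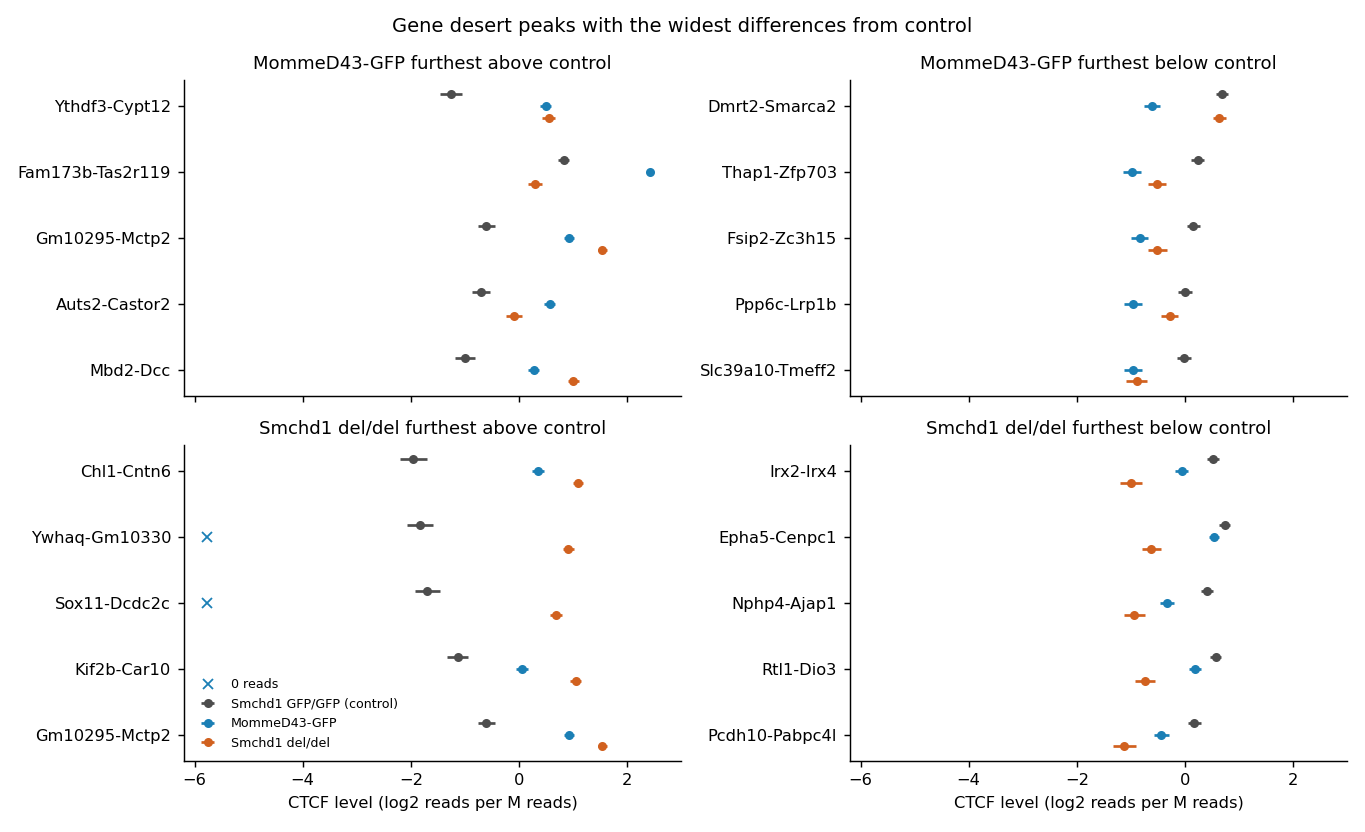
CTCF level (log2 reads per M reads) in the 3 genotypes at the 5 gene desert peaks furthest above and below control in each mutant, of those that reached the median level. Bars are the counting error of the pooled value and crosses mark a genotype with 0 reads in every library. At Chl1-Cntn6 and Gm10295-Mctp2 both mutants stand above control, while at Fam173b-Tas2r119 MommeD43-GFP is the highest at 2.42.

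With the same limit on level, MommeD43-GFP stood furthest below Smchd1 del/del, with a difference of -1.96 ± 0.17, between BC048507 and the methionine synthase reductase gene Mtrr (chr13:68171101-68172300), at levels of -0.01, -0.54 and 1.43. The peak beside Olfr161 at the start of chromosome 16 (chr16:3122401-3123750) stood at 1.26 ± 0.08, 1.77 ± 0.06 and 3.31 ± 0.05, or 4.13-fold above control in Smchd1 del/del. Between Igfbp3 and Tns3 (chr11:7568251-7569150) the levels were -0.70, -0.51 and 1.01. Smchd1 del/del was the high genotype at these 3 peaks, as it was at a pair of peaks between Zfp619 and Vstm2b on chromosome 7 (chr7:40072201-40073100 and chr7:40273201-40274850), where it stood at 0.80 and 1.90 and control at -0.74 and 0.03. MommeD43-GFP stood above Smchd1 del/del, besides the Tas2r119 and Epha5 peaks, between Bcl11a, a zinc finger repressor gene, and 5730522E02Rik (chr11:24361951-24363000) by 1.27 ± 0.23, between Kif2a and Smim15 (chr13:107310751-107311650) by 1.16 ± 0.23, and between Ywhaq and Gm10330 (chr12:21964501-21965550) by 1.16 ± 0.13. The first pair was low in Smchd1 del/del, at -1.04 and -0.92, and the last was high in MommeD43-GFP at 1.87. The widest such difference in a motif peak was 0.68 ± 0.14, between Insc and the SoxD gene Sox6 (chr7:115123051-115123950), with levels of 0.40, 1.29 and 0.61. In the opposite direction the second peak between Eef2kmt and Rbfox1 (chr16:5672701-5674800) stood at 0.79, 0.56 and 1.94.

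In 12 gene desert peaks, of 33 such peaks in all, MommeD43-GFP was at its lowest possible value, which corresponds to 0 reads in every library, while neither of the other genotypes had a gene desert peak at 0. These peaks were singled out after their values were seen. Of these, 9 were on chromosome 12 between 18178951 and 27698250, 2 on chromosome 4 between Manea and the ephrin receptor gene Epha7, and 1 on chromosome 15 between Angpt1 and Rspo2. None of them held a core motif. The highest of them in control was chr4:26555251-26556150, with 43.8, 0 and 47.7 reads per library. With 3 reads over the genotype as the limit that 0 reads allows, MommeD43-GFP was at least 51.8-fold lower than control there. At chr15:42928951-42929550 control had 23.2 reads and the bound was 27.4-fold. On chromosome 12 the difference of Smchd1 del/del from control ran from 0.09 ± 0.41 (chr12:19721401-19721700) to 2.75 ± 0.27 over the 9 peaks. At chr12:21950851-21951900, between Ywhaq and Gm10330, the reads were 11.7, 0 and 93.9, and at chr12:27697351-27698250, between the neural factor gene Sox11 and Dcdc2c, 12.8, 0 and 80.4. These 2, low in control, were among the 5 furthest above control in Smchd1 del/del and passed the limit on level through that genotype. The 266 gene desert peaks on chromosome 12 between 18 and 28 Mb had SDs of 1.10 and 0.80 for the differences from control, over peaks, against 0.50 and 0.58 over all gene desert peaks.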

How the data were processed

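The authors prepared 8 CTCF libraries and 1 input from NSC lines. Per the submitters' processing notes, Trim Galore 0.4.4, cutadapt 2.9, FastQC 0.11.8, Bowtie2 2.3.4.1, SAMtools 1.7 and R 4.2.0 were used on GRCm38. Peaks were called in SeqMonk for each genotype and overlapping ones were merged. Values were deposited by the authors on a log2 scale, as reads per M reads over a merged peak, undivided by length and averaged within each genotype. Duplicate removal is not given in the sources used here.

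Peaks were assigned to GENCODE M21 genes, and sequence was read from GRCm38.p6. Differences of log2 values were taken with no test. Read numbers were decoded from the lowest values, which were whole products of counts in 100% of products under 30, with 0 entered as 0.9 (tolerance 0.01). Centring, quantile normalization, loess, GC bins, thresholds, distances and a pseudocount of 1 were tried as alternatives, and the sets of tall and of motif peaks were added after seeing the data. Members, lists and tests were chosen with earlier results of these data known. Named peaks are the 5 tallest, the 5 furthest above and below in each comparison at or above the median level, the tallest of the 6 fullest deserts and of each desert group, and 2 on each side of the 200 kb limit. Scripts ran in Python 3.11.15 with matplotlib 3.10.9, statsmodels 0.14.6, scipy 1.17.1, pandas 2.3.3 and numpy 2.4.6.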

Additional observations from a re-analysis of the deposited data

How the results depend on the processing

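The table has 1 pooled column per genotype, so values were not set against the spread between libraries and leaving out each library was not run. No paired analysis was possible because the table carries no single libraries, although the labels number them. Depth limits single low peaks, whose counting error is near 0.2 per genotype.

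A limit of 100 kb gave 37013 peaks and 500 kb gave 7693. Per kb of peak the medians were -0.0044, -0.016 and -0.080 (control, MommeD43-GFP, Smchd1 del/del), and at or above the median level they were -0.014, -0.047 and -0.092. The core motif share was 6.36% for the relaxed motif, 0.624% in the central 300 bases and 4.26% at or above the median level, where peaks were 19.0 kb apart.

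Over the alternatives the median differences ran from -0.044 to 0.019 for MommeD43-GFP, from -0.11 to -0.0067 for Smchd1 del/del and from 0.0054 to 0.072 between the mutants. These moves were smaller than the counting error of a single peak. That error does not measure how firm a median over many peaks is. The first crossed 0 when columns were centred.

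Counts are given as higher, then lower, for MommeD43-GFP, Smchd1 del/del and MommeD43-GFP less Smchd1 del/del. At 1.5-fold they were 2597 and 2051, 2957 and 3440, and 2644 and 1857. At 4-fold they were 34 and 28, 86 and 25, and 19 and 35. At or above the median level they were 26 and 2, 159 and 37, and 10 and 32. At 500 kb, with fewer peaks, they were 269 and 131, 348 and 323, and 201 and 131. With a pseudocount of 1 they were 1 and 1, 15 and 0, and 1 and 6, since most peaks lie below the pseudocount. Quantile normalization gave 466 and 545 in MommeD43-GFP and 623 lower between the mutants. Removal of the trend on level gave 345 and 563, and 260 higher between the mutants. The cause was not tested.

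The 34 named differences kept their direction under centring, quantile normalization, removal of the trend, GC bins and the pseudocount. They were picked as the widest, and a pseudocount cannot change a sign, so this is no check on them. At least 2-fold were 28 as deposited and 9 with the pseudocount. For tall gene desert peaks the medians ran from 0.085 to 0.16 for MommeD43-GFP and from 0.10 to 0.23 for Smchd1 del/del. For motif peaks they ran from 0.13 to 0.25 and from 0.25 to 0.36.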
